A study of Mus musculus with 4 samples.

Results

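The comparison covers mouse embryonic stem (ES) cells in N2B27 that had been sorted through a gate for small cells, set against cells of the same culture sorted without a size gate, over all genes with enough reads to be compared. Wild-type ES cells were grown in 2i, which holds inhibitors of the kinases MEK and GSK3, sorted by forward and side scatter through the small gate or ungated, and plated on laminin for 6 h in N2B27, the basal medium without these inhibitors in which ES cells leave the naive state. In the paper the 2i medium also held leukaemia inhibitory factor (LIF), which N2B27 alone lacks as well. All cells carry the same genotype and had the same treatment, so the gate is the only labelled difference. The paper describes small cells as largely those just out of mitosis or in G1. The gate is one on light scatter, not on a marker of the cell cycle. Single cells were sorted again after the 6 h and sequenced by Smart-seq2, a full-length method that adds no molecular identifiers, and each count is therefore a read rather than a molecule. A cell entered the comparison when it had at least 1200000 reads on genes, at least 4400 genes detected and at most 5.2% of its gene reads on mitochondrially encoded genes. These limits left 22 of the 24 small cells and 21 of the 24 ungated cells, 43 of the 96 cells of the series.

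Each gate is 1 sample of cells. Cells are not replicates of a gate, so no test between the gates is given, and the 95% intervals printed here cover counting error only. Where a gene is called higher or lower, the ratio of the gates' means and the values of the cells are given, and nothing is claimed about other cultures.

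In naive ES cells most of the cycle is spent in S, G1 is short, and the daughter cells of a division stay joined by a bridge until abscission separates them. Genes of mitosis are transcribed late in the cycle through promoter elements called CHR, and their transcripts and proteins are removed as cells enter G1, whereas genes of DNA replication are driven by E2F factors around the entry into S. When the inhibitors of 2i are withdrawn, ERK signalling resumes, GSK3 becomes active, the naive transcription factors decline over the following day and formative genes such as Otx2 and Dnmt3b are induced.

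The kept cells had 1656940 to 3616563 reads on genes in the small gate (median 2736309) and 2107846 to 3587194 in the ungated cells (median 2582550). The 5 cells left out had 31680 to 1107513 reads on genes, and the 3 ungated cells among them had 25.4% to 39.1% mitochondrial reads. The cell just outside the limit on reads was a small cell of 1107513, and the kept cell just inside it had 1656940. Small cells had a larger share of reads on the ERCC spike-ins, RNAs added in equal amount to each well, with a median of 2.55% (0.799% to 6.03%) against 1.14% (0.744% to 1.90%), and 16 of 22 small cells lay above the highest ungated cell. By the cyclone classifier, which assigns a phase from pairs of marker genes, 7 small cells were in G1, 12 in S and 3 in G2/M, whereas 2 ungated cells were in G1, 4 in S and 15 in G2/M. The gates therefore differ in cell cycle phase and in RNA relative to the spike-ins, and the part of either in each difference below was not tested beyond the values within S, within G2/M and among cells with at most 2% spike-in reads that are given. The counts of both gates were deposited together, but the gates carried different second sequencing indices, called index rows here. The row and the gate therefore cannot be told apart.

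With every cell thinned to 1656940 reads, the small cells had 5603 to 9164 genes with a count (median 6693) and the ungated cells 6410 to 9200 (median 7745). The ranges overlapped, and the 4 cells with the fewest genes were small cells in G1 with 4.81% to 6.03% spike-in reads. Before thinning the medians were 7459 and 8200 genes, at median depths that differed little. Counts of under 10 reads were set against the indices of the cells. For 114 genes, 1 N2B27 cell had at least 500 reads and every other cell fewer than 10. Among those other cells, a count was found in 18.1% with the same second index and in 13.7% with the same first index. It was found in 2.55% of cells of the same gate with neither and in 1.32% of cells of the other gate with neither. Each cell is named by its own pair of indices, so no pair could be shared between the gates, whereas the first indices were used in both gates. These 114 genes were chosen for 1 cell with many reads, and the source of low counts in other genes was not tested. As a precaution, a count of 1 to 3 reads is not taken here as expression. The number of cells with at least 10 reads is given beside many genes below, in particular those absent from part of the cells.

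**Figure D1:**
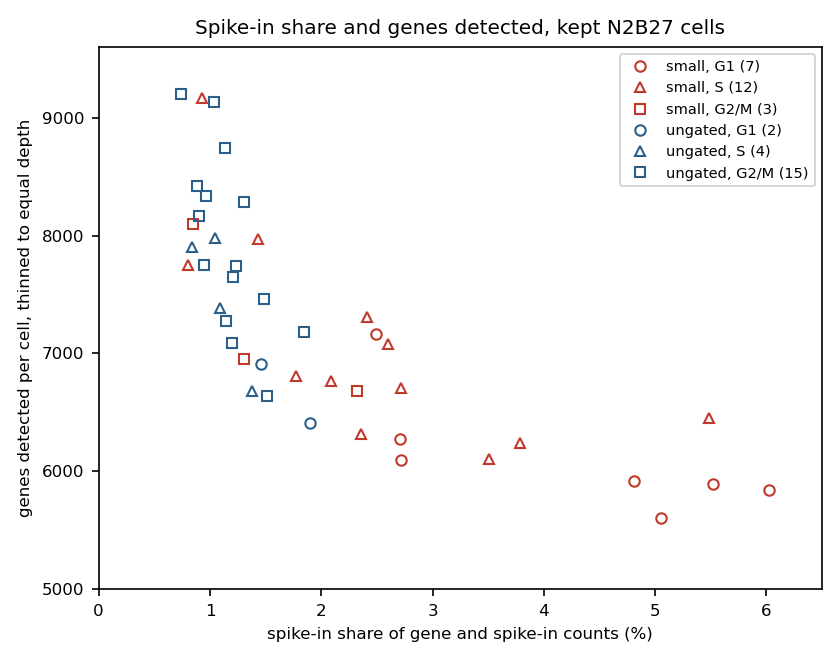
Genes detected per cell after thinning to equal depth (y axis) against the share of spike-in reads in percent (x axis), for the 22 small (red) and 21 ungated (blue) cells, with the shape of the point for the phase. The 7 small cells in G1 have a median spike-in share of 4.81%, and 4 of them sit at the lower right, and the ungated cells lie between 0.744% and 1.90%.

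Cells of the labelled type were present in both gates. All 10 ES cell markers were above the limit for testing, and their summed normalised count per cell was 13632 to 66641 in small and 11093 to 32020 in ungated cells. All 8 markers of fibroblast feeder cells were at 0 in every cell, none of the 9 primitive endoderm, 6 primitive streak or 9 measured 2-cell-like markers reached the limit for testing, and the median cell of both gates had a summed level of 0 for each of these lists. Of other cell types, 3 of 7 trophectoderm and 1 of 6 neural markers were tested, with summed levels of at most 1082 and 799.6 in small and 643.7 and 349.5 in ungated cells.

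Counts were scaled by DESeq2 size factors, and a difference is the log2 ratio of the mean normalised count in small over ungated cells, with 1 added to both means. Of 8701 genes with a mean of at least 20 normalised counts over the gates, 6210 (71.4%) were within 2-fold. At least 2-fold higher in small cells were 1120 genes (12.9% of those tested), and at least 2-fold lower were 1371 (15.8%). Past 4-fold there were 366 and 390. The median ratio over all tested genes was -0.08. No tested gene separated the gates cell by cell, so every gene named below had small cells within the range of the ungated cells or the reverse.

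The differences had 2 forms. Of the 1371 genes lower in small cells, 1362 had at least 10 reads in a smaller share of small than of ungated cells after thinning, 584 had at least 10 reads in at least 50% of the ungated cells, and 64 owed their mean to at most 3 ungated cells with that many reads. The direction of detection was common to most genes, since 6806 of all 8701 tested genes had at least 10 reads in a larger share of ungated cells and 1319 in a larger share of small cells. Of the 1120 genes higher in small cells, 717 had at least 10 reads in a larger share of small cells, 223 had at least 10 reads in at least 50% of them, and 245 owed their mean to at most 3 cells with that many reads. The gene of median detection had at least 10 reads in 36.4% of small and 57.1% of ungated cells. Without the highest cell of each gate, 851 of the higher and 1332 of the lower genes stayed past 2-fold.

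Level and length also went with the calls. Among genes with a mean of 20 to 50 normalised counts, 23.9% were at least 2-fold higher and 24.0% lower in small cells, and among the 374 genes with a mean of 1000 or more these shares were 1.34% and 2.67%. Genes in the longest quartile by summed exon length, over 6285 bases, were higher more often (23.1%) than lower (14.2%), whereas in the second quartile, from 2319 to 3974 bases, 7.69% were higher and 19.9% lower. The 657 processed pseudogenes tested had a median ratio of 0.10 with 4.11% higher and 4.87% lower. Reads may be placed on a pseudogene or on its parent gene, which was not measured. Ribosomal and other genes with many near-identical copies therefore have uncertain counts.

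**Figure D2:**
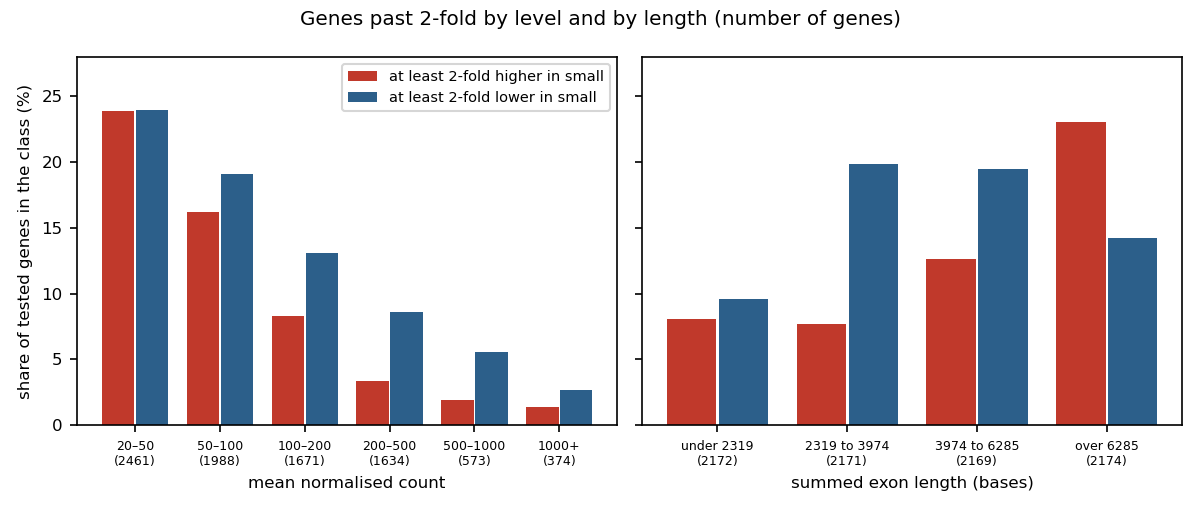
Share of tested genes at least 2-fold higher (red) or lower (blue) in small cells, in percent, by mean normalised count (left) and by summed exon length (right), with the number of genes in each class under its bars. The share past 2-fold drops from 23.9% and 24.0% in the lowest class of level to 1.34% and 2.67% in the highest, and higher calls are the more frequent only in the longest quartile of genes.

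Among the most abundant genes, those with a mean of at least 500 normalised counts, the lowest ratio was that of Cdc20, the activator of the anaphase-promoting complex, which ranged from 2.90 to 1981 normalised counts in small cells (median 394) and from 3.88 to 6175 in ungated cells (median 2079). The mean was 554 in small and 2336 in ungated cells, a log2 ratio of -2.07. The ranges overlapped at the low end, but the highest small cell was below the median ungated cell. The log2 ratio was -2.0 in S (12 small and 4 ungated cells) and -1.38 in G2/M (3 and 15 cells). It was -1.60 among the 6 small and 21 ungated cells with at most 2% spike-in reads. Phases were called from the same counts, and these subsets are small.

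Slc2a1, the glucose transporter GLUT1, had a median of 315 normalised counts (0 to 1707) in small cells and of 1339 (345 to 4100) in ungated cells, for means of 436 and 1587 and a log2 ratio of -1.86. At least 10 reads were found in 12 of 22 small cells and in all 21 ungated cells, and the cells with that many reads had a mean of 798 in the small gate, so both the number of cells and their level were lower. Dnmt3l, the cofactor of the de novo DNA methyltransferases, ranged from 0 to 793 normalised counts (median 65.5) in small cells and from 1.69 to 3424 (median 280) in ungated cells, with a log2 ratio of -1.90. For this gene the number of cells with at least 10 reads was alike, 13 of 22 and 14 of 21, and the mean of those cells was 375 in small and 1247 in ungated cells.

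Mfge8, a secreted glycoprotein that binds integrins and phosphatidylserine, had a median of 26.4 (0 to 1552) in small and of 655 (8.93 to 2226) in ungated cells, a log2 ratio of -1.48. At least 10 reads were found in 12 of 22 small and all 21 ungated cells. The ratio stood at -0.28 in S, at -3.79 in G2/M and at -0.43 among cells with at most 2% spike-in reads. Ezr, which encodes ezrin and ties the cell membrane to actin, had a median of 216 (0 to 1626) against 543 (0.816 to 2784) and a log2 ratio of -1.45.

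On the higher side, Parp2, an enzyme that adds ADP-ribose at DNA breaks, had a median of 343 (1.47 to 4047) in small and of 218 (0.975 to 647) in ungated cells. Its means were 783 and 245, a log2 ratio of 1.67, and the medians lay much closer than the means and the highest small cell was far above every ungated cell. In G2/M alone the ratio was -0.84. Rif1, which acts in replication timing and DNA repair, had a median of 365 (5.71 to 2881) against 333 (49.0 to 1189) and a log2 ratio of 1.45, and the ratio was -1.51 among the 6 small and 21 ungated cells with at most 2% spike-in reads.

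Elob, a subunit of the elongin complex, was higher over the whole range of cells, with a median of 1491 (677 to 8477) in small and 828 (470 to 1634) in ungated cells and a log2 ratio of 1.44. Lsm3, a subunit of the ring that binds U6 RNA, had a ratio of 1.36, and Pabpc1, the cytoplasmic poly(A)-binding protein, one of 1.17. Every kept cell had at least 10 reads of these 3 genes. Among cells with at most 2% spike-in reads the ratios were 0.23 for Elob, 0.24 for Lsm3 and 0.63 for Pabpc1. With all 24 cells of each gate, Pabpc1 was at -0.52. The cells added back in that setting include ungated cells of 190392 to 637314 reads on genes with size factors of 0.00899 to 0.0103. Every read of these cells is scaled up, as are those of a small cell of 31680 reads with a size factor of 0.00854. Whether this turned the ratio of Pabpc1 was not tested. This limit holds for every value with all 24 cells given below.

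**Figure D3:**
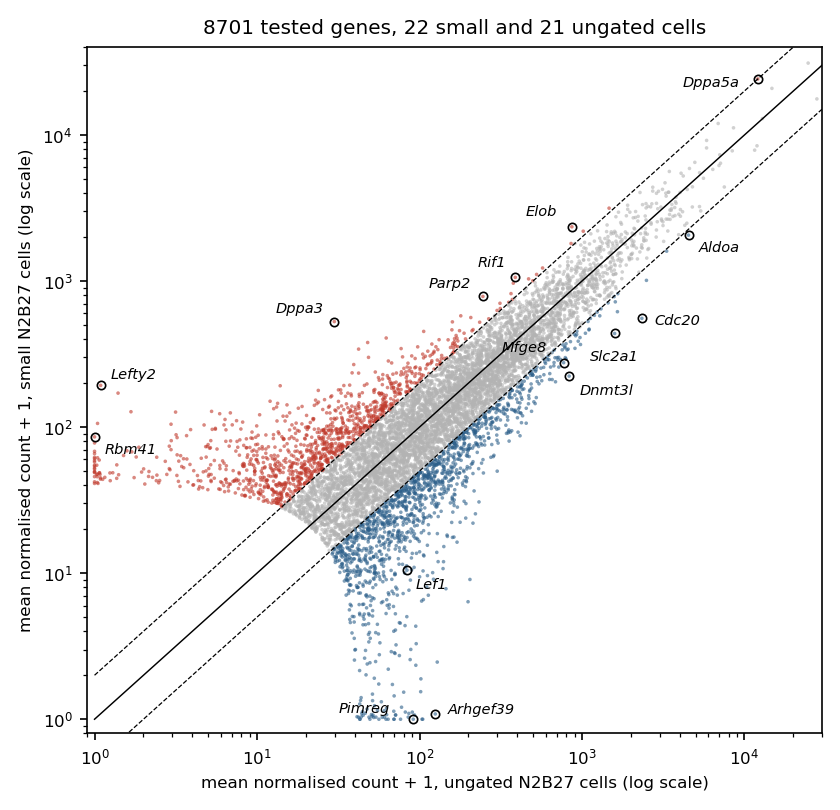
Mean normalised count plus 1 in small cells (y axis, log scale) against ungated cells (x axis, log scale) for 8701 tested genes. Red points are the 1120 genes at least 2-fold higher and blue points the 1371 at least 2-fold lower in small cells, the solid line marks equal means and the dashed lines 2-fold. Cdc20, Slc2a1, Dnmt3l and Mfge8 lie under the lower line at high level, circles mark the labelled genes, and Lefty2, Rbm41, Pimreg and Arhgef39 lie along the axes.

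Genes of mitosis were mostly lower in small cells. Of the 53 tested, 15 were at least 2-fold lower and 5 at least 2-fold higher, against 15.8% and 12.9% of all tested genes. Their median ratio was -0.39 against -0.08 over all tested genes, and it turned to 0.19 with size factors computed over the positive counts of every gene (poscounts), which placed all tested genes at 0.44. 41 of the 53 had a ratio under 0, as did 4670 of all 8701 tested genes. The summed count of the list ranged from 5376 to 32784 in small cells (median 14999) and from 11255 to 42888 in ungated cells (median 19911). The promoters of 3 of the genes that were lower are shown, since elements in the promoter are known to time this group. Sequences are those of RefSeq on GRCm38.p6, 250 bases before to 50 after the annotated start, with the CHR letters TTTGAA in capitals. Cdc20 lies at chr4:118437294-118437593 on the minus strand, Ccnb2 at chr9:70421505-70421804 on the minus strand and Plk1 at chr7:122159185-122159484 on the plus strand.
Cdc20: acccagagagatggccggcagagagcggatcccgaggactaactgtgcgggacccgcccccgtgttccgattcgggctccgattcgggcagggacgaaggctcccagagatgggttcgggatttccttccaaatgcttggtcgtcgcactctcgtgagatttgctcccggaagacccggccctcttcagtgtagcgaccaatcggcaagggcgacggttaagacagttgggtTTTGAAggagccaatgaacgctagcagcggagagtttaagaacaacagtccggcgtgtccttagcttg
Ccnb2: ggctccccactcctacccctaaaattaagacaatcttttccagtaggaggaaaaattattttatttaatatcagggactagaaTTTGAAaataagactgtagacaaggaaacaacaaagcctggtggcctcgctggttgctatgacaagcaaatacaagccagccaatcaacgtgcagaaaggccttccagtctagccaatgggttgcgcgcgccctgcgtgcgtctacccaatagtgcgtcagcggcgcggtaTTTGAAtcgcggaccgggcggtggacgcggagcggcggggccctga
Plk1: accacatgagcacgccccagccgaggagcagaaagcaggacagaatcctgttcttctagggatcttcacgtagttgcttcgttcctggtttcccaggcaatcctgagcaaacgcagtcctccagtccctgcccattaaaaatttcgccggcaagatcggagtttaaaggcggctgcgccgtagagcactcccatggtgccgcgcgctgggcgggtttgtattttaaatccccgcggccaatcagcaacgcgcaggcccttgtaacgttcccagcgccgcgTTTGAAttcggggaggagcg
The letters begin 18 bases before the start in Cdc20, 167 before and 4 after it in Ccnb2, and 30 after it in Plk1. Of 47 mitosis genes with a promoter in the table, 36 (76.6%) held TTTGAA or TTCGAA on either strand, against 21.7% of all 27025 genes and 16.8% of the 6407 tested genes with a promoter. Among the 12 of these that were at least 2-fold lower in small cells, 7 held the letters (58.3%). TTCGAA reads the same on both strands. A match is a description of the window and not a mapped site.

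Of these genes, Ccnb2, which encodes cyclin B2, had a median of 212 (1.42 to 1217) in small and of 817 (2.05 to 1870) in ungated cells, a log2 ratio of -1.39 that was -1.92 in S and 0.02 in G2/M. Plk1, the kinase of mitotic entry and of the spindle, split the cells into those with and without reads. At least 10 reads were found in 9 of 22 small cells, with a mean of 726 in those cells, and in 17 of 21 ungated cells, with a mean of 866. The ratio of -1.23 thus came mainly with the number of cells, and within G2/M it was 0.55.

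Kif20a, a kinesin of the midzone, had a ratio of -1.32, with at least 10 reads in 14 small and 20 ungated cells. Birc5, the chromosomal passenger survivin, had one of -1.06, with 16 and 21 cells. Ttk, the spindle checkpoint kinase MPS1, stood at -2.14 with 6 and 13 cells, and Mki67, the proliferation antigen Ki-67, had the lowest ratio of the list at -2.23, with only 2 and 6. The ratio was within 2-fold for 3 other genes central to this phase. It was -0.85 for Ccnb1, -0.48 for Cdk1, the kinase it activates, and -0.02 for Top2a, the topoisomerase of chromosome condensation.

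The highest ratio of the list was that of Kif14, a kinesin of cytokinesis, at 2.26, from 4 small cells with at least 10 reads (mean 537) and 5 ungated cells (mean 80.8). Ect2, the exchange factor that places the cleavage furrow, had a ratio of 1.23, but at least 10 reads were found in 13 small and 19 ungated cells, and its median was 25.8 in small and 63.0 in ungated cells. Its means and its medians thus differed in direction. The other 3 past 2-fold upward were Ckap5, Cdc25b and Kif18a, named for the count and not by the rule. The mitosis median was 0.15 within S and -0.17 within G2/M, where all tested genes had medians of 0.10 and -0.16.

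**Figure D4:**
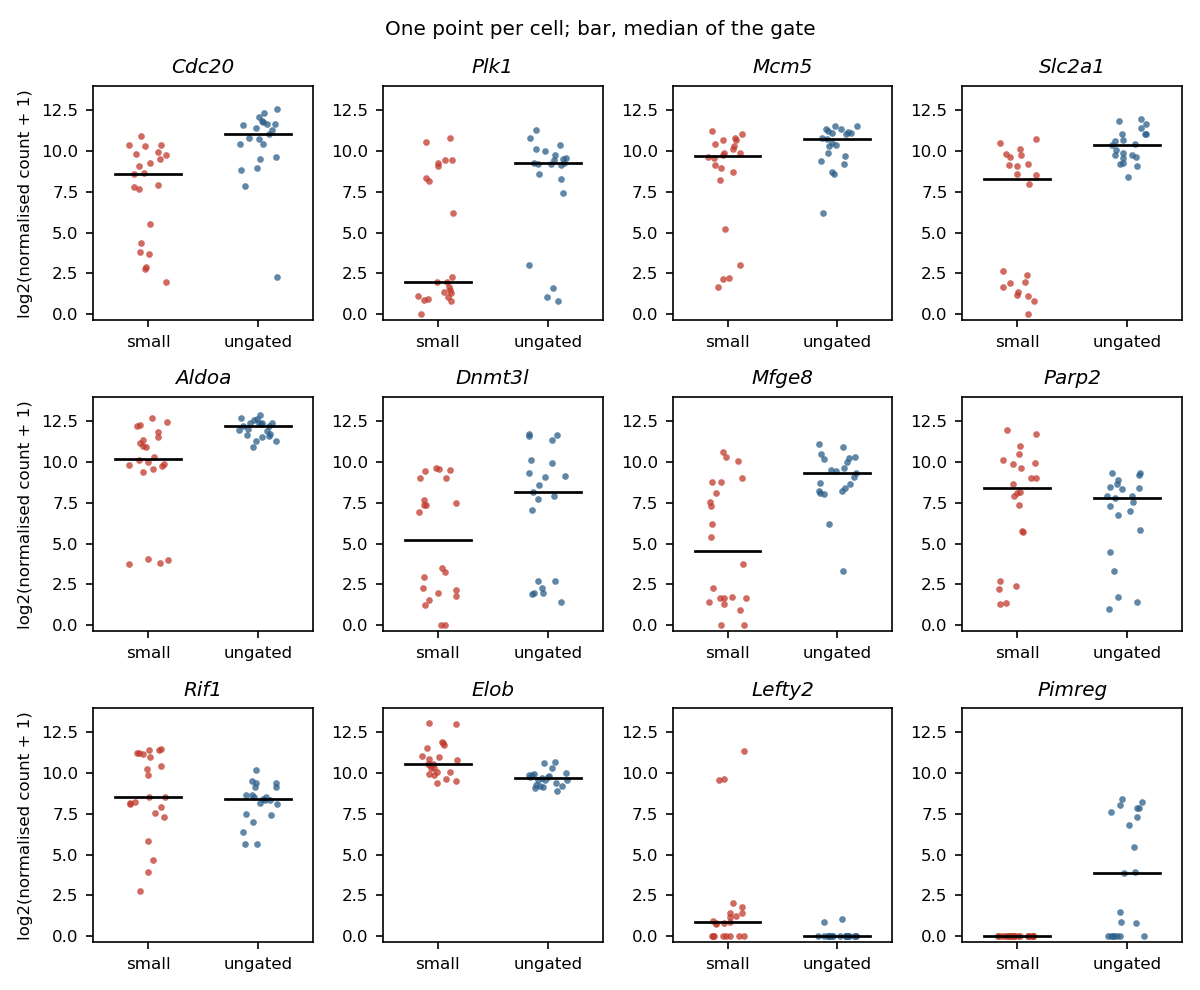
Normalised count of 12 genes in each cell, as log2 of the count plus 1, with 1 point per cell (22 small in red, 21 ungated in blue) and the median of the gate as a bar. Plk1, Slc2a1, Mfge8 and Dnmt3l fall into cells under 4 and cells above 5 on this scale, with more small cells in the lower set for Plk1, Slc2a1 and Mfge8, whereas Elob has no cell in a lower set.

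DNA replication genes as a group stood near the median of all genes. Of 46 tested, 2 were at least 2-fold higher and 3 at least 2-fold lower, with a median ratio of -0.04. Past 2-fold downward were Chaf1a, Prim2 and Pold2. Chaf1a, the large subunit of the histone chaperone CAF-1, was lowest at -2.17, with at least 10 reads in 5 small and 14 ungated cells. Mcm5, a subunit of the replicative helicase, had a median of 843 (2.21 to 2403) in small and 1736 (72.1 to 3044) in ungated cells and a ratio of -0.87. The ratio was -0.34 for Mcm2, of the same helicase, and 0.23 for Pcna, the sliding clamp, which every cell expressed (156 to 1906 and 197 to 1886). Pola1, the catalytic subunit of polymerase alpha, was highest at 1.59, with a median of 220 (0.714 to 2360) against 68.5 (0 to 621), and at -0.27 among cells with at most 2% spike-in reads. Its promoter is shown for the E2F letters GCGCCAAA, in capitals, at chrX:93632106-93632405 on the minus strand.
Pola1: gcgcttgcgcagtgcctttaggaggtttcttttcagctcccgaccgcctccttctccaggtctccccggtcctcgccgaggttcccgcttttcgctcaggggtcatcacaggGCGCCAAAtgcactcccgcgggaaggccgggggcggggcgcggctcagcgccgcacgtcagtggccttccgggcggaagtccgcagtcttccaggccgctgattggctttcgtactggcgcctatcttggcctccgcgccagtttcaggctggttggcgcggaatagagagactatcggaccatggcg
The letters begin 138 bases before the start. GCGCGAAA or TTTGGCGC, on either strand, was found in 10 of 38 replication genes with a promoter (26.3%), in 2 of 47 mitosis genes (4.26%), in 2.17% of the tested genes and in 0.929% of all genes. CHR letters were found in 18.4% of the replication genes.

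Regulators of G1 had a median ratio of -0.37, with 1 of 13 tested at least 2-fold higher and 2 at least 2-fold lower. Ccnd1, cyclin D1, a target of ERK and of beta-catenin, had at least 10 reads in 6 small and 14 ungated cells and a ratio of -1.76, which was -3.54 in S and 0.97 in G2/M. E2f4, a repressor of the E2F family, stood at -1.77, with 10 and 20 cells. Ccnd3, cyclin D3, was found in every cell, with a median of 725 (167 to 2145) against 1589 (63.4 to 3549) and a ratio of -0.82. Cdkn1a, the inhibitor p21, had 13 cells with at least 10 reads in either gate and a ratio of 0.58. The ratio of 1.99 for Rbl2, the pocket protein p130, rested on 2 cells in each gate, and it was -0.69 without the highest cell of each gate. Only 9 of 65 replication-dependent histone genes reached the limit for testing. Transcripts of this class mostly lack poly(A) tails, but the reason for the low number was not tested. Their median was 0.64, and 2 were at least 2-fold higher, with Hist1h1c, a linker histone, highest at 1.25 and Hist1h2ae lowest at -0.51.

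Glycolysis genes had the lowest median of the larger lists, at -0.79. Of 21 tested, 19 had a ratio under 0, 7 were at least 2-fold lower and 1 was at least 2-fold higher, against 4670 of 8701 under 0, 15.8% lower and 12.9% higher over all tested genes. The summed count per cell was 6047 to 38795 in small (median 17226) and 20676 to 41608 in ungated cells (median 27604). Aldoa, the main aldolase of these cells, ranged from 12.5 to 6760 (median 1190) in small and from 1946 to 7603 (median 4692) in ungated cells, with a ratio of -1.13. Pkm, pyruvate kinase, ranged from 234 to 10463 (median 4187) against 4153 to 13869 (median 7186), at -0.77. Both were thus low in some small cells and in no ungated cell.

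Slc2a3, the glucose transporter GLUT3, had a ratio of -0.87 beside the -1.86 of Slc2a1. Pdk1, the kinase that turns off pyruvate dehydrogenase, stood at -1.44, with at least 10 reads in 12 small and 16 ungated cells. Hk2, hexokinase 2, had one of -1.38, with 8 and 11 cells, and it was above 0 within S (0.73) and within G2/M (0.15). Nearer to the other genes were Pgk1 at -0.39 and Ldha, lactate dehydrogenase A, at -0.33. Eno3, the muscle enolase, was the lowest at -5.47, with at least 10 reads in 6 ungated cells and in no small cell, although with all 24 cells of each gate it was at 1.29, and Aldoc, a minor aldolase, the only 1 past 2-fold upward at 1.17, from 4 small and 2 ungated cells. The list's median was -0.52 in S, -0.31 in G2/M and -0.13 among cells with at most 2% spike-in reads, against -0.10 for all genes among those cells.

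Cholesterol synthesis genes had a median of -0.53, with 6 of 20 at least 2-fold lower and 0 higher, against 15.8% and 12.9% of all tested genes. Pmvk, phosphomevalonate kinase, was lowest at -1.57. Sqle, squalene epoxidase, had a median of 359 (0 to 1643) in small and 1121 (4.84 to 2946) in ungated cells, at -1.24. For Nsdhl, a later step, at least 10 reads were found in 5 small and 17 ungated cells, and those cells had means of 360 and 293, so its ratio of -1.52 came with the number of cells. Srebf2, the factor that drives the pathway, had the highest ratio at 0.76. Within G2/M the list's median was 0.24.

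Genes of translation and respiration stood slightly above 0, but below it with spike-in size factors, at -0.61 and -0.67, which placed all tested genes at -0.87. Of 75 ribosomal protein genes 61 had a ratio above 0, with a median of 0.31 and 1 gene past 2-fold in each direction, and of 78 nuclear genes of oxidative phosphorylation 61 were above 0, with a median of 0.34, 1 at least 2-fold higher and 2 lower. These shares past 2-fold are under the 12.9% and 15.8% of all genes, and the share past 2-fold was lower among abundant genes in general. Rpl35, of the large ribosomal subunit, had the highest ratio of its list at 1.38, with a median of 137 (56.8 to 594) against 73.5 (40.4 to 130) but at -1.39 with all 24 cells, and Rps12 the lowest at -1.22. Ndufc1, of complex I, stood highest at 1.05 and Sdhd, of complex II, lowest at -1.12, with a median of 298 (0.806 to 1537) against 870 (134 to 1870). Among cells with at most 2% spike-in reads the medians were 0.12 for ribosomal proteins and -0.09 for oxidative phosphorylation.

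The 10 mitochondrially encoded genes tested had a median of 0.02. The range ran from mt-Co1, a subunit of cytochrome oxidase, at -0.66 to mt-Nd6, the subunit read from the light strand, at 1.11. The share of mitochondrial reads was used to choose the cells, so these levels are a description. The 24 genes of ribosome biogenesis had a median of -0.20, with Rrp12, an export factor of pre-ribosomes, lowest at -1.92 and Utp20, of the small subunit processome, highest at 1.53. For Utp20 at least 10 reads were found in 10 cells of either gate, and the ratio was -2.44 in G2/M and -3.71 among cells with at most 2% spike-in reads.

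**Figure D5:**
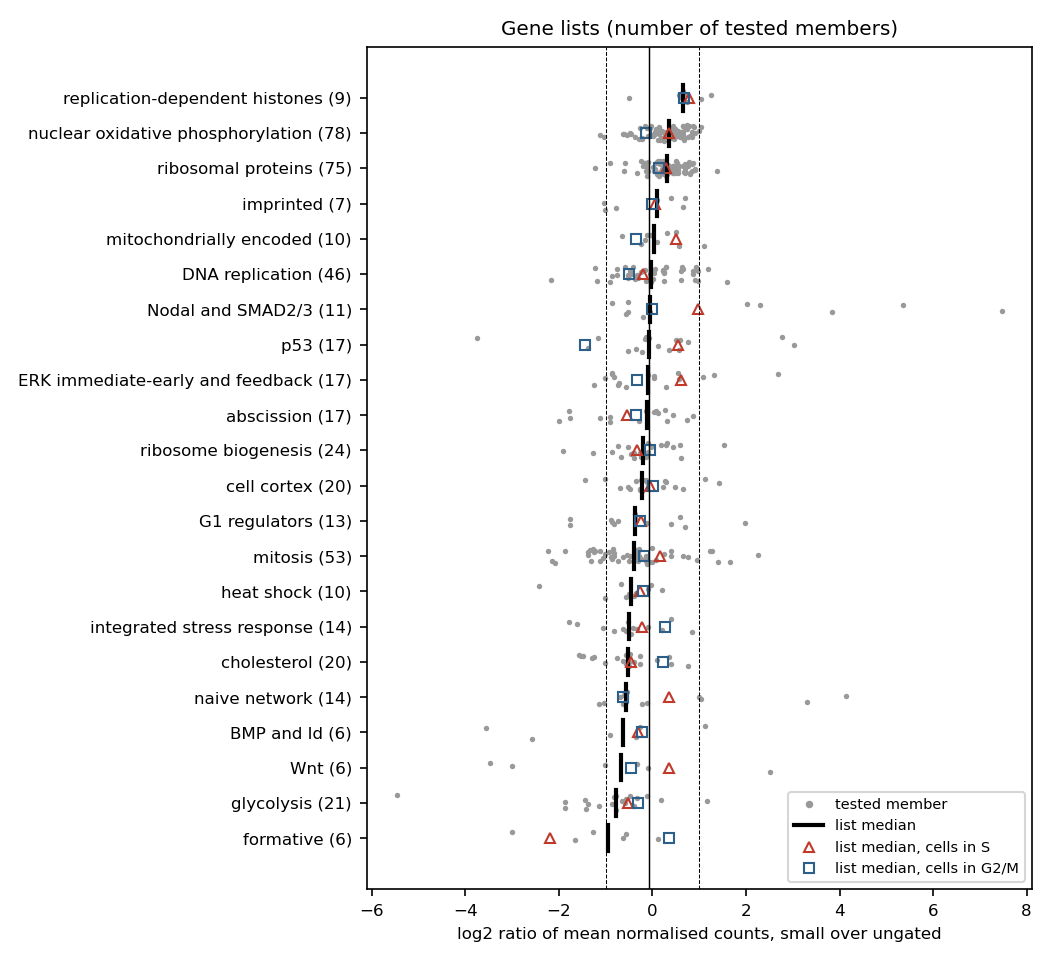
Log2 ratio of mean normalised counts, small over ungated (x axis), for the tested members of 22 gene lists (grey points) with the list median (black bar) and the median within S (red triangle) and within G2/M (blue square). The solid line is the median of all tested genes, -0.08, and the dashed lines mark 2-fold. Medians run from -0.95 for the 6 formative genes to 0.64 for the 9 histone genes, and glycolysis, at -0.79, is the lowest of the lists with over 6 tested members.

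The lists of signalling, pluripotency, stress, p53, abscission, cortex and imprinted genes described next hold 6 to 20 tested genes each, and their counts are to be read against the 12.9% higher and 15.8% lower of all tested genes. Of 17 tested immediate-early and feedback genes of the ERK pathway, 3 were at least 2-fold higher and 2 at least 2-fold lower (Spred1, Dusp5 and Spry4, and Dusp6 and Junb), with a median of -0.10. Dusp6, the ERK phosphatase, had at least 10 reads in 8 small and 19 ungated cells, with means of 492 and 473 in those cells, and a ratio of -1.25. Etv5, an ETS factor under ERK and found in nearly all cells, had a median of 706 (2.56 to 2070) against 1022 (120 to 2975) and a ratio of -0.56. Egr1, an immediate-early factor, stood on the other side at 0.57, with 13 and 10 cells. Spred1 and Spry4, inhibitors of the pathway, had ratios of 2.68 and 1.07, from 6 and 7 small and 2 and 3 ungated cells, but Spred1 was at -0.51 within S and Spry4 at -4.10 within G2/M.

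In the Nodal and SMAD2/3 list, 5 of 11 tested genes were at least 2-fold higher and 0 were lower, with a median of -0.06. They were Lefty2, Lefty1, Smad3, Skil and Acvr2b. Skil, the feedback inhibitor SnoN, was the most widespread of them, with at least 10 reads in 13 small and 7 ungated cells, a median of 28.2 (0 to 433) against 0 (0 to 115) and a ratio of 2.31. Lefty2, a secreted inhibitor of Nodal, was counted in 5529 reads of small cells, nearly all in 3 cells of up to 2651 normalised counts, and in 2 reads of ungated cells, a ratio of reads of 2670 (interval 739 to 22000). Lefty1, its paralogue, came from 1 small cell of 882 normalised counts, with 0 reads in ungated cells, at least 375-fold higher against a floor of 3 counts over the group. Both were at or near 0 in the other small cells. Among cells with at most 2% spike-in reads the log2 ratio was 0.21 for Lefty2, against 7.47 over all kept cells, and 0 for Lefty1, against 5.36. Within S it was 7.88 for Lefty2 and 0.086 for Lefty1. The ligands were closer between the gates, at -0.21 for Nodal and -0.86 for Gdf3, as was the co-receptor Tdgf1 at -0.53, for which at least 10 reads were found in 10 small and 18 ungated cells.

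In the Wnt list, which holds members of the pathway as well as targets, 3 of 6 tested were at least 2-fold lower and 1 was higher, with a median of -0.67. Lef1, the nuclear partner of beta-catenin, had at least 10 reads in 2 small and 12 ungated cells and a ratio of -3.0. Axin2, the feedback inhibitor, stood at -3.47, from 1 small and 4 ungated cells, but at 1.04 within S, and Ctnnb1, beta-catenin itself, at -1.02, with a median of 557 (0 to 2809) against 1270 (360 to 2343) and a ratio of 0.012 within G2/M. Znrf3, a ligase that removes Wnt receptors, was the gene past 2-fold upward, at 2.51 from 6 and 2 cells, but at -1.49 among cells with at most 2% spike-in reads. In the BMP and Id list, Id1 had a ratio of -3.55 with 2 and 8 cells, which was 3.85 within S, and Bmp4 one of -2.57 with 2 and 6 cells, Id3 stood at -0.27, and Smad1, the signal transducer, was highest at 1.13 with 5 cells in each gate.

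Of the formative genes 3 of 6 tested were at least 2-fold lower and 0 higher, with a median of -0.95, and Lef1, above, is 1 of the 3. Dnmt3b, a de novo DNA methyltransferase, had at least 10 reads in 6 small and 15 ungated cells and a ratio of -1.65, which was -5.80 in S and 1.22 in G2/M. Otx2, a factor of the formative state, stood at -1.26 from 2 and 6 cells, but at 1.12 within G2/M, and Utf1, found in every cell, at -0.63. Tcf15 was the highest at 0.11. Among 14 tested genes of the naive network, 4 were at least 2-fold higher (Dppa3, Klf4, Klf2 and Tcl1) and 2 lower (Tbx3 and Prdm14), with a median of -0.56. Dppa3, a maternal factor that protects DNA methylation, had the highest ratio at 4.14, from 4 small cells with at least 10 reads (mean 2890) and 5 ungated cells (mean 120), and the ratio was -2.19 in S and -2.83 in G2/M. Tbx3 was lowest at -1.14, with 3 and 13 cells, and Nr0b1, which encodes DAX1, stood at -0.70.

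Most tested stress genes had a ratio under 0, 11 of 14 of the integrated stress response and 9 of 10 of heat shock, against 4670 of 8701. Of 14 tested genes of the integrated stress response 3 were at least 2-fold lower (Ppp1r15a, Phgdh and Trib3) and 0 higher, near the 15.8% of all tested genes that were lower, with a median of -0.50. Phgdh, the first enzyme of serine synthesis, had a median of 37.8 (0 to 607) against 358 (28 to 1322) and a ratio of -1.61, with at least 10 reads in 11 of 22 small and all 21 ungated cells. Ppp1r15a, the phosphatase subunit GADD34, stood at -1.78, Asns, asparagine synthetase, at -0.10, Atf4, the factor that drives the response, at 0.20 and Chac1, a glutathione-degrading enzyme, highest at 0.85. Of 10 heat shock genes 2 were at least 2-fold lower, again near the share of all genes, Bag3, a co-chaperone, at -2.42 with at least 10 reads in 4 small and 14 ungated cells, and Hspb1, the small heat shock protein HSP27, at -1.02. Hsp90ab1, the most abundant of the list, had a ratio of -0.50, and Hspe1, the mitochondrial co-chaperonin, the highest at 0.20.

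Genes of the p53 list, which holds Trp53 itself as well as targets, had a median of -0.08. Of 17 tested, 2 were at least 2-fold higher (Trp53inp1 and Pmaip1) and 3 lower (Sesn1, Aen and Perp). Trp53inp1, a target that acts in cell death and autophagy, had a median of 36.1 (0 to 4660) in small and of 0.970 (0 to 163) in ungated cells, at least 10 reads in 13 and 9 cells and a ratio of 3.02, and it was at -0.04 in G2/M. Sesn1, an inhibitor of mTORC1, was lowest at -3.75, with 1 and 8 cells. Trp53 itself stood at -0.36 and Mdm2, its ligase and target, at 0.51.

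Of 17 tested genes of abscission, none was at least 2-fold higher, 4 were at least 2-fold lower, against 12.9% and 15.8% of all tested genes, and the median was -0.11. Among the ESCRT-III subunits, Chmp7 had at least 10 reads in 7 small and 18 ungated cells and a ratio of -1.75, and Chmp2b had 7 and 14 cells and a ratio of -1.78, and Vps4a, the ATPase that disassembles them, was the fourth gene past 2-fold. Zfyve19, the abscission checkpoint protein ANCHR, was lowest at -2.01 with 2 and 5 cells. Cep55, which recruits the machinery to the midbody, stood at -0.13, Tsg101, of ESCRT-I, at 0.03, and Ist1, of ESCRT-III, highest at 0.87, with a median of 428 (0.712 to 1729) against 262 (0 to 736). In the list of the cell cortex 2 of 20 were past 2-fold upward (Myh9 and Myh10) and 2 downward (Ezr and Msn), with a median of -0.21. Msn, moesin, stood beside Ezr at -1.01, Actb, beta-actin, at 0.48 and Myh9, the non-muscle myosin heavy chain, highest at 1.42 with 8 and 4 cells. Of 7 imprinted genes 2 were at least 2-fold lower (Rian and Meg3) and 0 higher, with a median of 0.10, from Rian, a non-coding RNA of the Dlk1 locus, at -1.03 to Cdkn1c, the inhibitor p57, at 0.71.

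The largest ratios were sought among protein-coding genes with a mean of at least 50 and a count in at least 50% of cells, both in the higher gate alone, and every index row of that gate above every row of the other. Since these limits were met through the gate where a gene is high, the size of these ratios is a description and supports no other result. Lower in small cells were Arhgef39, Xrcc3, Pimreg, Trmu, Aldh1l1, Ppp2r5b, Gpx7, Os9, Pigc and Zfp141, with ratios from -6.85 to -5.75. Xrcc3, which acts in homologous recombination, and Pimreg, a mitotic regulator that binds CALM, had 0 reads in the 22 small cells and 2564 and 2190 reads in ungated cells, so they were at least 885-fold and 756-fold lower against a floor of 3 counts over the group. Pimreg had at least 10 reads in 11 of 21 ungated cells, Ppp2r5b, a subunit of the phosphatase PP2A, in 10, and the other 8 in 6 to 8, so the cells with these transcripts were 6 to 11 of the 21 ungated cells. Arhgef39 had 2 reads against 3078, a ratio of reads of 1590 (interval 441 to 13200). At least 10 of its reads were found in 7 ungated cells, so the interval describes reads and not cells. The 2 reads in small cells are in the range not taken here as expression.

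Higher in small cells were Lefty2, Zfp729b, Rbm41, Efcab10, Zfp791, Nfatc2ip, Ints2, Zfp719, Fam91a1 and Npat, with ratios from 4.42 to 7.47. They were found in fewer cells than those of the opposite set, with at least 10 reads in 2 to 8 of 22 small cells. Rbm41, an RNA-binding protein, had 2036 reads in small and 0 in ungated cells, at least 655-fold higher against the same floor, from 5 small cells. Fam91a1, a vesicle tether, had 8 small cells with a mean of 281 and 1 ungated cell of 59.7, and Npat, which activates histone genes at the entry into S, had 5 small cells with a mean of 249 and 2 ungated cells with one of 7.87. The number of cells is small for each, and the count in at least 50% of cells by which they were chosen includes counts of 1 to 3 reads.

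By detection alone, with cells thinned to equal depth and a count of 1 read taken as detection, 36 genes (0.414% of those tested) were seen in a share of small cells at least 50 percentage points lower than of ungated cells, and 1 gene (0.0115%) in one at least 50 points higher. Of the tested genes 5461 were seen in a larger share of ungated cells and 1995 in a larger share of small cells. The largest differences on the lower side were those of Gpc4, a glypican that binds growth factors, with 4.55% of small and 71.4% of ungated cells, Cacnb3, a calcium channel subunit, with 13.6% and 76.2%, Trmu, a tRNA-modifying enzyme of mitochondria, with 4.55% and 66.7%, Sart1, a splicing factor, with 31.8% and 90.5%, and Slc19a2, a thiamine transporter, with 27.3% and 85.7%. Without thinning these genes were seen in 4, 4, 2, 8 and 9 of 22 small cells and in 15, 16, 15, 20 and 20 of 21 ungated cells. With at least 10 reads, Gpc4 was found in 1 small and 13 ungated cells and Cacnb3 in 2 and 14, so these 2 differences do not rest on counts of a few reads.

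On the higher side, Tbc1d23, a Golgi trafficking protein, was seen in 90.9% of small and 33.3% of ungated cells, but at least 10 reads were found in 10 small and 7 ungated cells, a far smaller difference. Tnks2, tankyrase 2, was seen in 90.9% and 42.9% and had at least 10 reads in 13 and 6 cells, with a median of 27.2 (0 to 930) against 0 (0 to 136) and a ratio of 2.31. Rdh14, a retinol dehydrogenase, Nfatc2ip and Opa3, a mitochondrial protein, had 8, 7 and 7 small and 3, 2 and 6 ungated cells with at least 10 reads. With 10 reads as the limit, 55 genes were lower by at least 50 points and 1 was higher, Abhd2, a lipase, with 50% of small and 0% of ungated cells. Abhd2 was singled out after its values were seen.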

How the data were processed

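Single cells of the N2B27 samples were sequenced by Smart-seq2. The authors deposited raw read counts per gene and cell. Per the submitters' processing notes and the study's methods, reads were trimmed with Trim Galore 0.4.4, aligned to mm10 with GSNAP 2015-09-29 and counted with HTSeq, so reads shared by overlapping genes were not counted. Genes took 74.3% of the counted N2B27 reads, ERCC spike-ins 1.9% and rows that name no gene 23.8%. The latter were left out.

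Cells were assigned to samples through the deposited run list. Counts were scaled with DESeq2 1.42.0 median-ratio size factors (R 4.3.3), and phases were called with cyclone (scran 1.30.0). Ratios of means used a pseudocount of 1 and genes with a mean of at least 20. For detection, cells were thinned to 1656940 reads. The study's tests between gates were not repeated, since each gate is 1 sample. Calculations were tested on simulated data and run in Python 3.11.15 with numpy 2.4.6, scipy 1.17.1 and pandas 2.3.3. Symbols, biotypes and exon lengths came from GENCODE M21.

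Named genes were, in each direction, (a) the 10 protein-coding genes with the largest ratio among those with, in the higher gate, a mean of at least 50 and a count in at least 50% of cells, and with separated index rows, (b) the 5 with the largest difference in detection, (c) the 5 with the largest ratio among those with a mean of at least 500, and (d) the extreme and textbook members of each gene list. The cells, gene lists and rules were chosen with earlier results of these data known. Other scalings, filters, cell limits and single phases were tried. Some members of the gene lists are not reported here.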

Additional observations from a re-analysis of the deposited data

Results flagged for a closer look

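For 11 genes named above, the log2 ratio of small over ungated cells was past 2-fold in opposite directions in N2B27 and in 2i, and the difference between the media was not tested, since each gate is 1 sample in each medium. The 2i ratios rest on 12 small and 22 ungated cells, and they are also given without 2 small 2i cells, the cell with most genes and the cell with the largest spike-in share.

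Higher in small cells in N2B27 and lower in 2i were Lefty2 (7.47 against -2.31, and -2.16 without the 2 cells), Trp53inp1 (3.02 against -1.14 and -1.09), Rdh14 (2.89 against -2.32 and -2.53), Spred1 (2.68 against -2.33 and -3.09), Kif14 (2.26 against -3.32 and -4.87), Opa3 (1.55 against -2.01 and -2.25) and Spry4 (1.07 against -2.49 and -3.05). Lower in small cells in N2B27 and higher in 2i was Aldh1l1 (-6.37 against 1.63 and 1.87). For Birc5 (-1.06 against 2.68), Otx2 (-1.26 against 1.52) and Sdhd (-1.12 against 2.03) the 2i ratios without the 2 cells were -1.15, -0.10 and -0.05, so their opposite direction rests on those cells. In 2i the means of small and ungated cells were 0.873 and 8.44 for Spred1 and 0.469 and 7.27 for Spry4. Both, with reads in 2 and 1 small cells, were under the mean required for testing, and their 2i ratios rest on few counts. Kif14 had means of 2.07 and 29.8, Rdh14 of 6.79 and 37.9, with reads in 2 small cells each. Lefty2 had 12.5 and 66.3, with reads in 3 small cells. Means were higher for Opa3 (43.5 and 178), Trp53inp1 (80.5 and 179) and Aldh1l1 (117 and 37.0).

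The spike-in reads, which are used above for alternative size factors and for a limit on cells but are not themselves compared as genes, took a median share of 2.55% in small cells against 1.14% in ungated cells. This difference was not tested either.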

How the results depend on the processing

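The number of genes at least 2-fold higher and lower (1120 and 1371) moved by over 1.5 times with some scalings, with other summaries over cells, with other limits for low genes and within single phases. With CPM (1187 and 1239) and scran (1533 and 1124) both counts moved less. They were 2529 and 861 with poscounts size factors, 288 and 3817 with spike-in size factors, 391 and 3726 with the mean of log2 values, 296 and 2727 with medians over cells, 1925 and 2387 with a mean of at least 5, 210 and 401 with a mean of at least 100, and 2713 and 3531 with no filter. The lower count was 2218 with all 24 cells and 2463 within G2/M, and the higher count was 2048 within S. These settings move the median of all tested genes to 0.44 with poscounts, -0.87 with spike-ins and -0.78 with the mean of log2 values.

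Genes with detection at least 50 points higher and lower (1 and 36) were 5 and 39 without thinning, 0 and 67 at 5 counts, 1 and 55 at 10 counts, 17 and 212 past 40 points, 3 and 59 with limits of 3 median absolute deviations, and 189 and 379 within S, which holds 12 small and 4 ungated cells. The mitosis median of -0.39 was 0.19 with poscounts, -1.25 with spike-ins, -1.65 with the mean of log2 values, -1.25 with medians over cells and 0.15 within S. Of 22 list medians, 15 lay under that of all tested genes, 9 within G2/M and 12 to 17 under the other settings. Over all alternatives 416 of 484 list medians kept their sign, as did 2753 of 2904 values of single genes. The total for single genes includes settings that cannot change a sign, namely the other limits on the mean and the other pseudocounts. Fewest of the 132 single genes kept their sign within G2/M (98), with medians over cells (111), with at most 2% spike-in reads (111) and within S (112).

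Some genes past 2-fold turned direction. With spike-in size factors these were Ndufc1 at -0.090, Smad1 at -0.039, Tbc1d23 at -0.15 and mt-Nd6 at -0.23. With all 24 cells they were Eno3 at 1.29, Pabpc1 at -0.52, Pmvk at 0.075, Rpl35 at -1.39 and Utp20 at -0.94. That setting includes cells that failed the limits, with size factors as low as 0.00854. Within S they were Axin2 at 1.04, Cacnb3 at 0.0025, Dppa3 at -2.19, Hk2 at 0.73, Id1 at 3.85, Kif14 at -0.12, Rian at 0.046, Spred1 at -0.51 and Tbx3 at 0.14. Within G2/M, with 3 small cells, they were Aldoa at 0.072, Ccnb2 at 0.019, Ccnd1 at 0.97, Chmp7 at 0.47, Ctnnb1 at 0.012, Dnmt3b at 1.23, Dppa3 at -2.83, Dusp6 at 0.047, Hk2 at 0.15, Myh9 at -4.06, Otx2 at 1.12, Parp2 at -0.84, Plk1 at 0.55, Rbl2 at -3.28, Rdh14 at -3.49, Rps12 at 0.30, Spry4 at -4.10, Tbc1d23 at -5.04, Trp53inp1 at -0.037, Utp20 at -2.44, Zfp791 at -0.84 and mt-Nd6 at -0.81. Among cells with at most 2% spike-in reads, an alternative chosen after seeing the data as was leaving out the small cell with most genes, they were Hspb1 at 0.057, Pola1 at -0.27, Rbl2 at -3.0, Rif1 at -1.51, Tbc1d23 at -0.49, Utp20 at -3.71, Zfp791 at -0.56, Znrf3 at -1.49 and mt-Nd6 at -0.43. Ect2 was at -1.22 with the mean of log2 values and at -1.25 with medians, and Rbl2 at -0.69 without the highest cell of each gate. The cause was not tested.

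No paired analysis was possible because each group is 1 sample, so the groups share fewer than 2 replicate numbers. With 1 sample a gate, leaving out a replicate was not run. Counts are reads without molecular identifiers, so depth bounds the counting error and not the spread between cultures. Genes with under 50 normalised counts are seen in few cells and passed 2-fold most often.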
